A study of Mus musculus with 21 samples.

Results

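The RNAs of TGF-beta and activin signaling were described here across 6 murine lines of pancreatic ductal adenocarcinoma (PDAC) that had been made resistant to a MEK inhibitor (MEKi) and then released from the drug. The 10 genes are the ligands Tgfb1, Tgfb2, Tgfb3 and Inhba, the receptors Tgfbr1, Tgfbr2 and Tgfbr3, and the intracellular transducers Smad3, Smad4 and Smad7. They were chosen by symbol from a table of 34478 genes, and all 10 were found there and passed the filter on low values that left 19300 genes for testing. The primary lines, numbered #3, #4, #6, #7, #9 and #10, were grown from tumors of genetically engineered mice carrying Ptf1awt/Cre and Trp53loxP/loxP, and every sample shared the same genotype. In this model Cre is expressed from the pancreas gene Ptf1a and deletes Trp53. Parental cells (n = 6) had never been treated, and resistant cells (n = 6) grew in trametinib, an inhibitor of the kinases MEK1 and MEK2, at 100 times the IC50 of their line. Withdrawn cells were resistant cells returned to drug-free medium and collected as P5 (n = 3, lines #3, #7 and #9) or P12 (n = 6, after 12 passages). For P5 the labels gave 5 drug-free passages in line #3 but 12 in lines #7 and #9, so the time off the drug of the latter samples is uncertain. Each line gave 1 mRNA library per state, and the lines served as the replicates, so that p-values measure the spread between lines. The parental library of line #9 stood apart in its cell type markers, with the lowest epithelial and the highest fibroblast marker sum of its state, so results that rest on it are also given without that line.

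The 3 TGF-beta proteins are secreted in a latent complex and, once freed, bind a type II receptor (TGFBR2) that phosphorylates a type I receptor (TGFBR1), and TGFBR3 (betaglycan) presents ligand, TGF-beta 2 above all. The type I receptor phosphorylates SMAD2 and SMAD3, which enter the nucleus with SMAD4 and regulate target genes, among them the inhibitory Smad7. Activin A, a dimer of the Inhba product, uses other receptors but the same Smads. In pancreatic cancer the pathway is known both for arresting epithelial growth and for driving epithelial-mesenchymal transition (EMT), and SMAD4 is often lost in human tumors.

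Tgfb1 lies on chromosome 7 at 25687002 to 25705077 (plus strand), Tgfb2 on chromosome 1 at 186622792 to 186705989 (minus strand) and Tgfb3 on chromosome 12 at 86056745 to 86079041 (minus strand) of the mouse build GRCm38. These 2 promoters are shown because Tgfb1 and Tgfb2 were the ligand genes that passed the test in at least 1 comparison. Each window holds the 250 bases before the RefSeq start on the gene's own strand, 5′ to 3′. Capitals mark matches, on either strand, to CAGAC (a Smad box), TATAAA (the TATA box of core promoters), GGCGGG (a GC box, read as CCCGCC on the other strand) or TGANTCA (an AP-1 site, N being any base).
Tgfb2, chr1:186705990-186706239, minus strand: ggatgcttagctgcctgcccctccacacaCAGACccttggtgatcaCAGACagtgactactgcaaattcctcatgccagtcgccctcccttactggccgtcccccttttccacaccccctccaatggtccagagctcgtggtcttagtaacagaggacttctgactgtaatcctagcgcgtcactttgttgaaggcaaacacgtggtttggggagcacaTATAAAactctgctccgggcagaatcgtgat
Tgfb1, chr7:25686752-25687001, plus strand: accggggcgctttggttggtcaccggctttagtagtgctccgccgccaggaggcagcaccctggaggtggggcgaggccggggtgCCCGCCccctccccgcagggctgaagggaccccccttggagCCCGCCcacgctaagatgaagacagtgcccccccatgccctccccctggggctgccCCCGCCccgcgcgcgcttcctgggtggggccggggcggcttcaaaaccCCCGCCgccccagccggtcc
The Tgfb2 window held 2 Smad boxes, which began 221 and 204 bases before the start, and 1 TATA box, which began 31 bases before it. The Tgfb1 window held 4 GC boxes, beginning 165, 124, 68 and 20 bases before the start, and none of the other motifs. Neither window held the AP-1 letters. The GC content was 75.2% for Tgfb1 and 53.6% for Tgfb2, against a median of 52.4% over 32851 promoter windows of the same length. Of those windows, 42.2% held the Smad box, 12.4% the TATA box, 32.5% the GC box and 6.75% the AP-1 letters, so a match to any of the first 3 is common and describes the letters only. Promoter windows were kept for 6 of the 10 genes (Tgfb1, Tgfb2, Tgfbr1, Tgfbr2, Smad3 and Inhba), with 2 windows for Tgfbr1. Smad4 and Smad7 were left out before this count, so their absence from it is not a result.

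Tgfb2 was the member with the largest rise in the resistant cells. Parental cells held 40.92 (line #3), 227.0 (median) and 453.2 (line #9) normalized counts of Tgfb2 at the lowest, middle and highest, and resistant cells held 3531.6 (line #3), 5032.0 and 9742.7 (line #6). Every resistant sample thus lay above every parental one, a separation in this direction that 2.83% of the tested genes showed. This was a log2 fold change of 5.16 ± 0.99 (SE), or 35.7-fold, with limma's Benjamini-Hochberg adjusted p = 0.00189. In bulk RNA, a change in the number of cells of a type and a change in RNA per cell cannot be told apart. Within lines the log2 difference ran from 3.97 in line #7 to 6.97 in line #10 and was positive in 6 of 6 lines. Tgfb2 ranked 136th from the top by fold change among the 19300 genes. Of the 10 members it was the only one called, where a gene was called if its log2 fold change lay beyond 1 in either direction at an adjusted p under 0.01, and 2.57% of all tested genes were called higher and 2.73% lower by the same rule. With the lines entered as blocks, the adjusted p was 0.000539 and 4.85% of genes were called higher and 5.6% lower. Without line #9 the log2 fold change was 5.37 and passed (adjusted p = 0.00558). Without line #4, #6 or #10 in turn, it was 5.32, 5.17 and 4.80, and the adjusted p of 0.0106, 0.0105 and 0.0123 no longer passed.

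**Figure D1:**
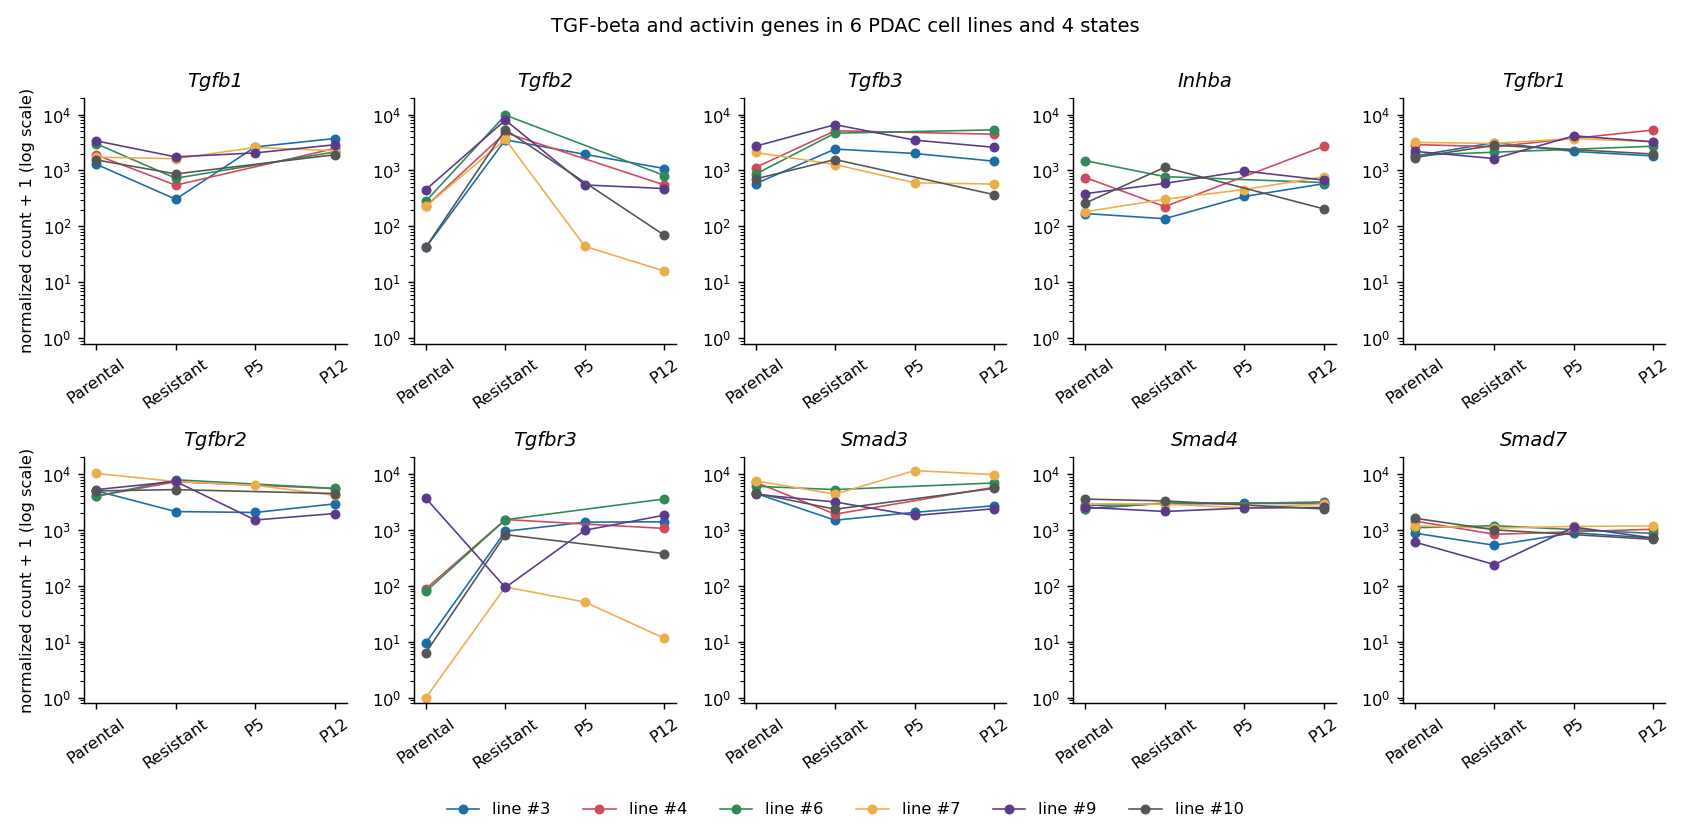
Normalized counts plus 1 on a log axis for each of the 10 genes in each state, with 1 point per sample and 1 colored line per cell line. Tgfb2 lay between 3531.6 and 9742.7 in all 6 resistant samples and at or below 453.2 in all 6 parental samples, while Smad4 stayed between 2145.3 and 3573.0 in every sample of these states.

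After drug withdrawal Tgfb2 was lower again in every line. P12 samples held 1080.6 (line #3), 809.7 (line #6), 547.9 (line #4), 473.5 (line #9), 68.21 (line #10) and 14.83 (line #7), and none of them reached the lowest resistant sample. Of the tested genes, 1.06% were separated in this way. The log2 fold change of P12 against resistant cells was -4.43 ± 0.99 (SE), the 69th lowest of all genes. Its limma adjusted p of 0.0105 missed the limit of 0.01, and the fit with the line as a block called it (adjusted p = 0.00319). The P5 values were 1938.7 (line #3), 549.3 (line #9) and 42.96 (line #7), and each lay between the resistant and the P12 value of its line. Whether P12 cells returned to the parental level differed between lines. The log2 difference from the parental sample was 4.69 in line #3 and -3.85 in line #7, and P12 exceeded parental in 5 of 6 lines. The mean of 0.73 ± 0.99 (SE) was not distinguishable from 0 (limma adjusted p = 0.752), and it was -0.06 without line #3.

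Tgfb1, the TGF-beta form most widely made in tissues, lay lower in the resistant than in the parental sample of every line, without passing the test. Its lowest, median and highest normalized counts were 1290.5 (line #3), 1810.1 and 3379.4 (line #9) in parental cells and 304.5 (line #3), 794.9 and 1745.2 (line #9) in resistant cells, so the groups overlapped. Resistant samples were below the parental sample of their own line in 6 of 6 lines, by 2.08 on the log2 scale in line #3 and by 0.10 in line #7. Its log2 fold change of -1.30 ± 0.35 (SE) did not pass at the limit used (limma adjusted p = 0.0165, and 0.012 with the line as a block).

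In P12 cells Tgfb1 rose. The samples held 1905.8 (line #10), 2361.8 (median) and 3721.7 (line #3) normalized counts, and all exceeded the highest resistant sample, as 1.39% of tested genes did. The log2 fold change against resistant cells was 1.61 ± 0.35 (SE), or 3.06-fold, with limma adjusted p = 0.00852 (0.00658 with the line as a block), and the increase was seen in 6 of 6 lines. It was the only member called in this comparison, with 1.28% of all genes called higher and 0.85% lower, while the block fit called 2.52% higher and 2% lower. The call ended when P12 and resistant cells were fitted alone (adjusted p = 0.0464) or without the filter on low values (0.0128). It passed without line #9 (limma adjusted p = 0.00663). Leaving out line #3, #4, #6, #7 or #10 gave log2 fold changes of 1.22, 1.50, 1.62, 1.84 and 1.71. Their limma adjusted p of 0.0453, 0.0527, 0.034, 0.0136 and 0.0284 did not pass. In P5 cells Tgfb1 was 2632.5 (line #3), 2575.9 (line #7) and 2057.0 (line #9), each above the resistant sample of its line. P12 and parental cells overlapped, with a log2 fold change of 0.31 ± 0.35 (SE; limma adjusted p = 0.699).

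Tgfb3, the third TGF-beta ligand, varied mainly between lines. Parental cells held 576.3 (line #3), 992.3 (median) and 2707.5 (line #9) normalized counts, and resistant cells 1274.6 (line #7), 3522.5 and 6580.2 (line #9). The resistant sample was the higher one in 5 of 6 lines, and line #7 went the other way by -0.72 on the log2 scale. The overall log2 fold change of 1.40 ± 0.65 (SE) did not pass (limma adjusted p = 0.157, and 0.0386 with the line as a block). P12 cells ranged from 368.3 in line #10 to 5309.3 in line #6 and overlapped both other states.

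Inhba, which encodes the subunit of activin A (chromosome 13, 16011851 to 16031621, plus strand), showed no common direction. Parental cells held 168.7 (line #3), 321.2 (median) and 1495.2 (line #6) normalized counts, resistant cells 136.0 (line #3), 444.7 and 1133.8 (line #10), and P12 cells 204.5 (line #10), 638.8 and 2693.1 (line #4). Resistance went with a higher level in 3 of 6 lines, and the log2 difference spanned -1.73 in line #4 to 2.12 in line #10. The P5 samples held 341.1 (line #3), 454.0 (line #7) and 974.2 (line #9), each above its own parental sample. The log2 fold change of resistant against parental cells was 0.08 ± 0.63 (SE; limma adjusted p = 0.952).

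Normalized counts of different genes are comparable only per length, so the ligands were set side by side per kilobase of merged exon. In parental cells Tgfb2 made up 1.38% to 5.39% of the summed Tgfb1, Tgfb2 and Tgfb3 level, with a median of 4.49%. In resistant cells it made up 33.4% (line #4) to 59.3% (line #10), with a median of 45.6%. Tgfb1 went from 34.3% to 66.4% in parental cells to 4.37% to 24.4% in resistant cells, where line #7 had the highest share. In no resistant sample was Tgfb1 the ligand with the highest level, whereas it was in 4 of 6 parental samples. Tgfb2 led in lines #6, #7 and #10 of the resistant state, and Tgfb3 led in the other 3. The summed level of the 3 ligands per kilobase was 433.4 to 1548.8 in parental and 1318.3 to 3661.9 in resistant cells, and the sum was higher in the resistant sample of every line. In P12 cells the Tgfb2 share was 0.414% (line #7) to 13.8% (line #3), Tgfb1 led in 3 samples and Tgfb3 in 3. These shares are a description of the same counts and were not tested separately.

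**Figure D2:**
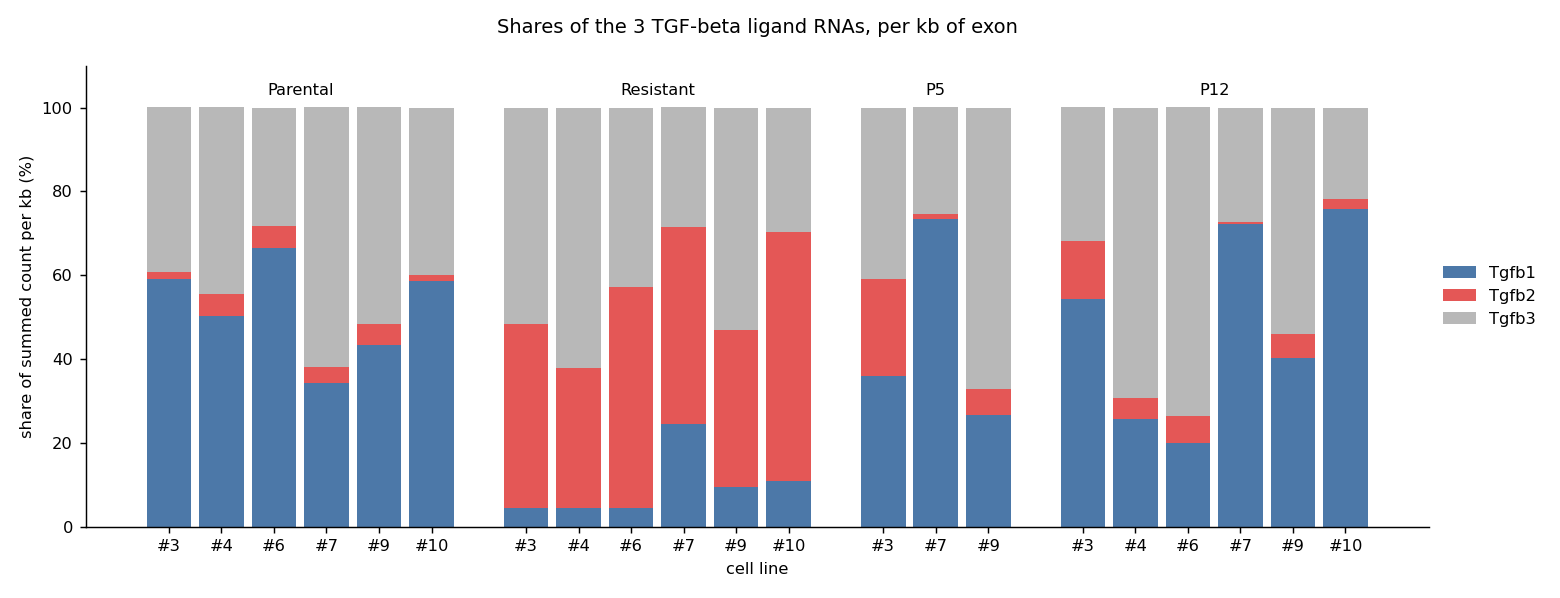
Share of Tgfb1, Tgfb2 and Tgfb3 in their summed normalized count per kilobase of merged exon, in percent, with 1 stacked bar per sample grouped by state. The Tgfb2 share spans 33.4% to 59.3% in the resistant bars and 1.38% to 5.39% in the parental bars.

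None of the 3 receptors passed the test in any comparison. Tgfbr1, the type I receptor (chromosome 4, 47353222 to 47414931, plus strand), held 1699.3 (line #10), 2029.8 (median) and 3170.7 (line #7) normalized counts in parental cells and 1629.2 (line #9), 2737.1 and 3145.4 (line #3) in resistant cells, and was higher in 3 of 6 lines. Its log2 fold change was 0.18 ± 0.25 (SE; limma adjusted p = 0.69). The withdrawn states reached 4153.2 in P5 cells of line #9 and 5282.5 in P12 cells of line #4, and P12 exceeded parental in 5 of 6 lines without passing the test (0.37 ± 0.25, SE; adjusted p = 0.501).

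Tgfbr2, the type II receptor that binds ligand (chromosome 9, 116084293 to 116175360, minus strand), held 4017.1 (line #6), 5005.4 (median) and 10273.0 (line #7) normalized counts in parental cells and 2133.9 (line #3), 7319.3 and 7918.1 (line #6) in resistant cells. Line #3 was lower by 1.23 on the log2 scale and line #6 higher by 0.98, so the mean of 0.11 ± 0.37 (SE) joined lines of opposite sign (limma adjusted p = 0.876). In P5 cells Tgfbr2 was 2059.6 (line #3), 6302.5 (line #7) and 1508.7 (line #9), below the parental sample in 3 of 3 lines, with a log2 fold change of -0.97 ± 0.46 (SE; limma adjusted p = 0.473).

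Tgfbr3, which encodes betaglycan (chromosome 5, 107106570 to 107289629, minus strand), differed widely between lines. Parental samples held 8.537 (line #3), 87.91 (line #4), 78.77 (line #6) and 5.396 (line #10) counts, it was listed at 0 in line #7, and line #9 held 3699.3. Resistant samples held 92.79 (line #9), 886.8 (median) and 1536.8 (line #4) counts. The resistant level was higher in 5 of 6 lines, by up to 7.01 on the log2 scale in line #10, while line #9 went from the highest parental level to the lowest resistant one, a log2 difference of -5.30. With this spread the log2 fold change of 3.88 ± 1.66 (SE) did not pass (limma adjusted p = 0.12, and 0.0264 with the line as a block), nor did the 5.72 obtained without line #9 (adjusted p = 0.0195). P12 samples still held 10.58 (line #7), 1234.5 (median) and 3594.5 (line #6) counts. Against parental cells this was a log2 fold change of 4.12 ± 1.66 (SE), the 48th highest of all genes, and it did not pass either (limma adjusted p = 0.24, and 0.058 with the block). The P12 sample was above the parental one in every line but #9, where it held 1841.7 against 3699.3. Tgfb2 and Tgfbr3 differed in this respect after withdrawal: the P12 medians were 510.7 for Tgfb2 and 1234.5 for Tgfbr3, against resistant medians of 5032.0 and 886.8. Within lines, however, Tgfbr3 had no common direction from resistant to P12 cells. It rose in lines #3, #6 and #9, in the last from 92.79 to 1841.7, and fell in lines #4, #7 and #10. The log2 fold change was 0.23 ± 1.66 (SE; limma adjusted p = 0.963), and its sign turned without line #9.

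Among the Smads, Smad3 (chromosome 9, 63646767 to 63757994, minus strand) was lower in the resistant than in the parental sample of every line without passing the test. Parental cells held 4333.2 (line #9), 5306.0 (median) and 7569.7 (line #7) normalized counts and resistant cells 1495.4 (line #3), 2759.6 and 5282.1 (line #6). The log2 difference ran from -1.90 in line #4 to -0.20 in line #6. Its mean was -0.98 ± 0.43 (SE; limma adjusted p = 0.134, and 0.0151 with the line as a block). P12 cells held 2398.5 (line #9), 5682.1 (median) and 9814.2 (line #7) counts and were above the resistant sample in 5 of 6 lines, all but line #9. In P5 cells line #7 reached 11539.8, while lines #3 and #9 held 2068.0 and 1817.9.

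Smad4, the shared partner of the receptor-regulated Smads, was the most even of the 10 genes. It held 2407.8 to 3573.0 normalized counts in parental, 2145.3 to 3308.2 in resistant, 2466.9 to 3004.8 in P5 and 2376.5 to 3167.3 in P12 cells. The log2 fold change of resistant against parental cells was 0.06 ± 0.13 (SE; limma adjusted p = 0.804). Smad4 RNA was thus present in all 21 libraries.

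Smad7, a feedback inhibitor that blocks the type I receptor, held 607.5 (line #9), 1139.7 (median) and 1623.4 (line #10) normalized counts in parental cells and 240.3 (line #9), 921.8 and 1195.1 (line #6) in resistant cells. The resistant sample was the lower one in 5 of 6 lines. Its log2 fold change of -0.59 ± 0.33 (SE) did not pass (limma adjusted p = 0.242), and P12 cells held 678.3 to 1186.1 counts.

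**Figure D3:**
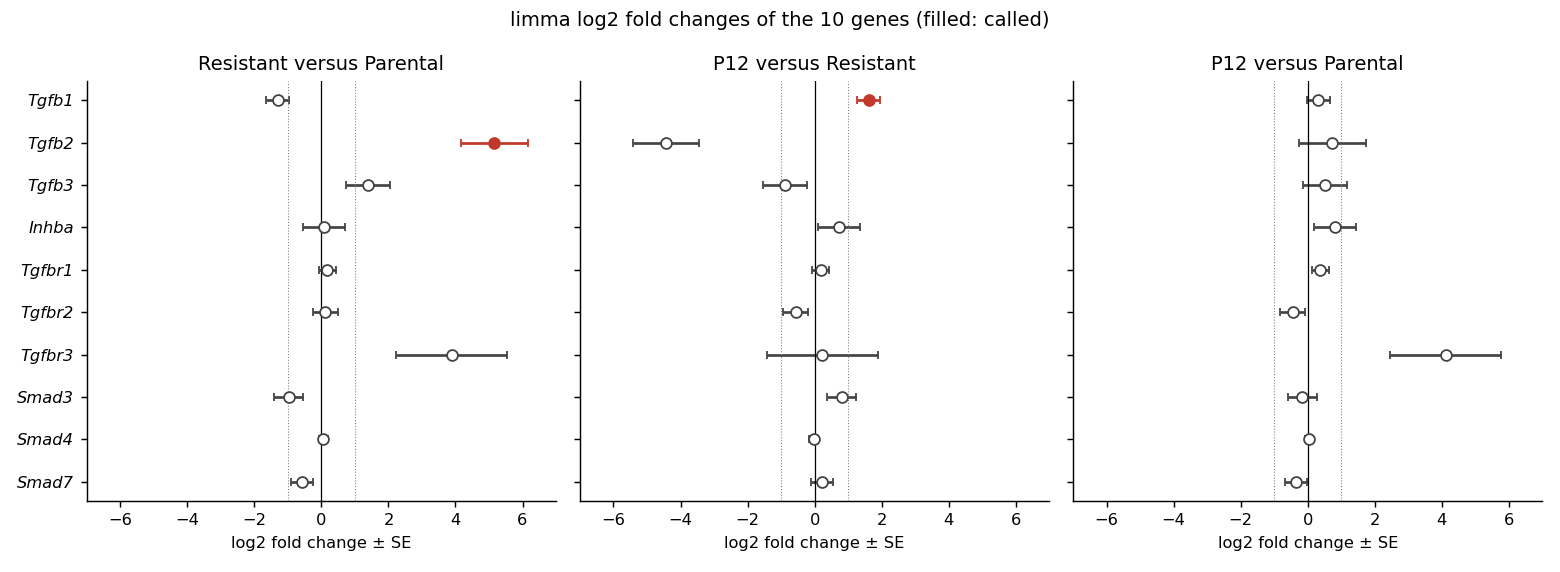
limma log2 fold changes of the 10 genes with bars of 1 SE in 3 comparisons, filled red where called, with dotted lines at -1 and 1. Tgfb2 stood at 5.16 in resistant against parental cells and Tgfb1 at 1.61 in P12 against resistant cells, and no gene was filled in P12 against parental cells.

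In the remaining comparisons no member was called by limma. P12 against parental cells had 0 of 10 members called, with 0.114% of all genes called, or 0.523% with the line as a block, and 1 member, Tgfbr3, had an unadjusted p under 0.05, as 15.3% of all genes did. P5 against resistant cells had 0 of 10 called against 0.378% of all genes, and 3 members had an unadjusted p under 0.05, as 15.4% of all genes did. These were Tgfb1 with a log2 fold change of 1.56 (adjusted p = 0.0625), Tgfb2 with -3.90 (adjusted p = 0.104) and Tgfbr2 with -1.09 (adjusted p = 0.252). P5 against parental cells had 0 of 10 called against 0.0259% of all genes, and 1 member, Tgfbr2, had an unadjusted p under 0.05, as 10.4% of all genes did. The P5 comparisons rested on 3 lines only. These comparisons share samples with each other, since the same resistant or parental libraries enter several of them.

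The split of the variance over parental, resistant and P12 cells set Tgfb1 and Tgfb2 apart from the other members, as a description. For Tgfb2 the state accounted for 69.3% of the sum of squares of the log2 values and the line for 13.1%. Tgfb1 came next with 56.9% for the state and 16.8% for the line. In Smad3 (34.5% state, 43.9% line), Tgfbr3 (30.4% and 40.9%), Tgfb3 (22.2% and 46.4%), Tgfbr2 (16.3% and 32.9%), Smad7 (15.7% and 56.5%), Tgfbr1 (12.1% and 42.3%), Inhba (10.1% and 32.7%) and Smad4 (1.78% and 35.2%) the line share was larger than the state share. The rest, due to neither, exceeded both in Smad4 (63.0%), Inhba (57.2%), Tgfbr2 (50.8%) and Tgfbr1 (45.6%). Per kilobase of merged exon, the parental medians ranked Smad3 first at 957.4, followed by Smad4 at 713.1, Tgfbr2 at 611.4, Tgfb1 at 359.0, Tgfbr1 at 310.6, Tgfb3 at 293.3, Smad7 at 252.1, Inhba at 50.2, Tgfb2 at 39.2 and Tgfbr3 at 6.65. The resistant medians ranked Tgfb3 first at 1041.2, Tgfbr2 at 894.0, Tgfb2 at 869.0, Smad4 at 798.8, Smad3 at 498.0, Tgfbr1 at 418.9, Smad7 at 203.9, Tgfb1 at 157.6, Tgfbr3 at 135.5 and Inhba at 69.6. In both orders the sample ranges of each gene and its neighbor overlapped.

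The genes whose log2 levels were most like Tgfb2 over the 21 samples of 6 lines were Akap12 (Pearson r = 0.961), Pmp22 (0.944) and Msrb3 (0.926). Those most like Tgfb1 were Tiam2 (0.942), Elk3 (0.919) and Arhgef40 (0.893). These values are descriptive, since the samples share lines and states.

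Library sums ran from 28576703 to 37119662 normalized counts, and no library stood apart in this. The cells were checked against marker genes, because primary cultures grown out of tumors can hold other cell types. The summed level of 7 epithelial markers was 15950.2 to 283037.7 normalized counts in parental and 1013.7 to 209981.6 in resistant cells, with line #9 the lowest in both, and Epcam was under 10 in every library. The sum of 9 fibroblast markers was 122.4 to 24853.9 in parental cells, with line #9 the highest, 1919.0 (line #7) to 577895.2 (line #9) in resistant cells and 251.6 to 153867.3 in P12 cells. Of the 8 fibroblast markers tested, 1 was called higher in resistant cells (3 with the line as a block), where 2.57% of all genes were called higher (4.85% with the block). Of the 6 epithelial markers tested 1 was called lower (4 with the block), where 2.73% of all genes were called lower (5.6% with the block). Line #7 had the lowest fibroblast sum of the resistant state and also the smallest Tgfb2 difference of the 6 lines, 3.97 on the log2 scale. Line #9, with the highest fibroblast sum of that state, went from 453.2 to 7937.8 normalized counts of Tgfb2. The largest Tgfb2 difference was that of line #10, from 41.6 to 5349.1, so the 2 orders of the lines differed. The part of these markers in the Tgfb2 result was not tested. Immune markers summed to at most 416.3 and Cd3e was under 10 in every library, endothelial markers summed to 15.8 to 2753.0, and acinar markers to 0 to 931.2. The endothelial sum was highest in resistant line #6. Of the 4 endothelial markers tested, 1, Tek, was called higher in resistant cells, where 2.57% of all genes were. The others were not called, with log2 fold changes of -0.40 (Pecam1), -1.595 (Cdh5) and 1.17 (Kdr).

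Beyond the 10 members, 96 further genes of the TGF-beta superfamily were listed by role, of which 94 were in the table and 83 were tested. In resistant against parental cells 3 were called higher and 4 lower, or 3.61% and 4.82% of those tested against 2.57% and 2.73% of all genes. With the line as a block 9 were higher and 10 lower, or 10.8% and 12% against 4.85% and 5.6%. Their median log2 fold change was 0.206 against -0.00491 over all genes. In P12 against resistant cells 1 was called higher and 1 lower, or 1.2% each against 1.28% and 0.85% of all genes, so that these shares were near those of all genes. The block gave 4 and 9, or 4.82% and 10.8% against 2.52% and 2%, and the median was -0.315 against 0.0221. P12 against parental cells had 0 called by limma and 14 with an unadjusted p under 0.05 (16.9% against 15.3% of all genes). The block called 2, Pmepa1 and Itgb6, both lower, or 2.41% against 0.311% of all genes. Pmepa1, Itgb6 and the genes named only from the block fit were named after their values were seen.

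Extracellular antagonists, which bind ligands outside the cell, held 2 of the 3 genes called higher in resistant cells. This was 28.6% of the 7 antagonists tested, against 2.57% of all genes. The groups by role are small and were not tested as sets. Dcn (decorin, a matrix proteoglycan that binds TGF-beta and also one of the fibroblast markers) held 0.9354 to 19.78 normalized counts in parental cells. In resistant cells it held 268.1 (lowest), 36728.5 (median) and 65968.5 (highest), without overlap, as 2.83% of tested genes did in this direction. Its log2 fold change was 11.00 ± 1.97 (SE; limma adjusted p = 0.00116), with parental levels near the 2.31 to 4.07 normalized counts that 3 reads give. Fstl3 (a follistatin-like protein that neutralizes activins) held 219.5 to 570.9 in parental and 462.4 to 2336.7 in resistant cells. It was higher in 6 of 6 lines, with a log2 fold change of 1.86 ± 0.39 (SE; adjusted p = 0.00337), and it fell by 1.78 on the log2 scale in P12 cells (adjusted p = 0.00873), again in 6 of 6 lines. Grem1, an antagonist of BMPs, was at 0 in 3 of 6 resistant samples and at most 17.51 in the others, and held 73.65 to 4630.2 in P12 cells. Its log2 fold change of P12 against resistant cells was 8.03 ± 1.56 (SE; adjusted p = 0.0042). Parental samples held 18.14 to 27523.9, and the log2 fold change of resistant against parental cells, -6.19 ± 1.56 (SE), was not called (limma adjusted p = 0.0119).

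Of the 11 latency and activation genes tested, 1 was called higher and 1 lower in resistant cells, or 9.09% each against 2.57% and 2.73% of all genes. The third gene called higher in resistant cells was Itgb8, from this group. It encodes an integrin subunit that frees TGF-beta from its latent complex. It held 2.29 to 225.9 normalized counts in parental and 136.8 to 1728.1 in resistant cells, with a log2 fold change of 5.07 ± 1.16 (SE; limma adjusted p = 0.00652) and a higher value in 6 of 6 lines. The groups overlapped. The lowest parental value lay below the 2.31 to 4.07 normalized counts that 3 reads give, and the parental median was 13.97. Furin, the protease that cleaves TGF-beta precursors, was called lower, at 3001.0 to 9849.7 in parental and 688.5 to 3970.0 in resistant cells (-1.64 ± 0.39, SE; adjusted p = 0.00899). Line #9 was its exception, with a log2 difference of 0.11.

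Acvr1b, the type I receptor of activins (ALK4), was the 1 of 12 other receptors and co-receptors called in resistant cells (8.33% lower, against 2.73% of all genes). It held 1682.3 to 4082.5 normalized counts in parental and 334.5 to 2390.8 in resistant cells, lower in 6 of 6 lines (-2.06 ± 0.42, SE; limma adjusted p = 0.00299). Among the 13 intracellular regulators 2 were called lower, or 15.4% against 2.73% of all genes. Tgif1, a homeobox co-repressor, fell by 1.36 on the log2 scale (SE 0.31; adjusted p = 0.00676), and Trim33, a ubiquitin ligase that acts on Smad4, fell by 1.02 (SE 0.21; adjusted p = 0.00328), each in 6 of 6 lines. None of the 8 further TGF-beta, activin and nodal ligands, the 10 BMP-type ligands and the 5 other Smads tested was called by limma in resistant cells, and 3, 4 and 2 of them had an unadjusted p under 0.05, as 29.2% of all genes did. Dcn was called whichever line was left out. The other calls depended on single lines. Acvr1b lost its call without line #3, #6, #7 or #10 (adjusted p of 0.0104 to 0.0279), Itgb8 and Furin without line #3, #4, #6 or #10 (0.0119 to 0.048 and 0.0215 to 0.0536), and Trim33 without line #3, #6 or #10 (0.0146 to 0.0233). Tgif1 held its call only without line #9 (otherwise 0.0132 to 0.0402). The rise of Fstl3 was lost without line #6, #9 or #10 (0.0154 to 0.0181) and its fall without any line but #3 (0.0196 to 0.0464), and the call of Grem1 was lost without line #3, #4, #6 or #10 (0.0172 to 0.0372).

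Common target genes of TGF-beta lay on both sides of 0. Of 21 tested, 0 were called by limma in resistant against parental cells, 10 had an unadjusted p under 0.05 (47.6% against 29.2% of all genes), and the median log2 fold change was 0.42. With the line as a block 2 were called higher, Tagln (5.83 on the log2 scale; adjusted p = 0.000912), an actin-binding protein, and Col1a1 (5.19; adjusted p = 0.00363), a fibrillar collagen and fibroblast marker. By the same fit 4 were lower, namely Cdkn2b (-1.48; adjusted p = 0.00717), a cyclin-dependent kinase inhibitor, the AP-1 gene Junb (-1.69; adjusted p = 0.00838), Angptl4 (-2.98; adjusted p = 0.00476) and Pmepa1 (-1.46; adjusted p = 0.00349), a negative regulator of Smad signaling. These calls were 9.52% (higher) and 19% (lower) of the 21 genes, against 4.85% and 5.6% of all genes with the block. In P12 against resistant cells 0 of 21 were called by limma and 6 had an unadjusted p under 0.05 (28.6% against 19.8% of all genes), with a median of -0.10. Cdkn2b alone was called higher with the block, or 4.76% of the 21 against 2.52% of all genes.

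**Figure D4:**
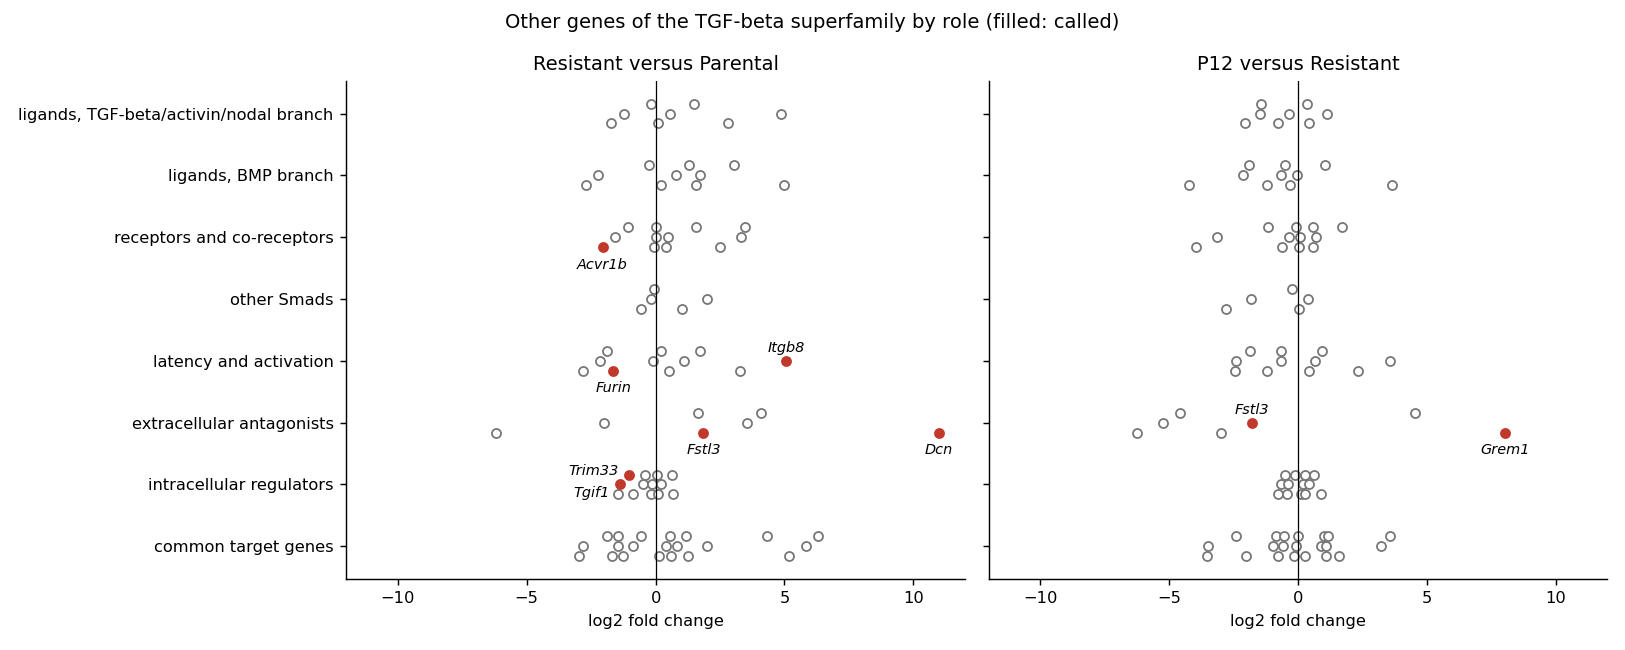
limma log2 fold changes of the other TGF-beta superfamily genes, 1 point per gene, in rows by role, for resistant against parental cells (left) and P12 against resistant cells (right), with called genes filled and named. The common target genes spread to both sides of 0 with none filled, while Dcn stands at 11.00 on the left and Grem1 at 8.03 on the right.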

How the data were processed

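Polyadenylated RNA of 21 cultures was sequenced as paired reads from stranded libraries, on 1 of 2 sequencer types that the labels do not assign to samples. The deposited signal values are gene counts that the authors normalized with DESeq2 (version 1.18) after trimming with Skewer, estimation with Salmon (version 0.12) and summing per gene with TXImport, and the submitters' processing notes name the mouse build mm10. Reads were demultiplexed with CASAVA (version 2.17) or bcl2fastq (version 2.19). Because the raw counts were not used here, values were tested as log2(normalized count + 1).

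Genes with at least 10 normalized counts in at least 3 samples were fitted with limma (version 3.58.1, R version 4.3.3; eBayes with a trend) over all 21 samples and 4 states without a covariate. The fit without a covariate was chosen here. p-values were adjusted by Benjamini-Hochberg over 19300 genes, and a gene was called if its log2 fold change lay beyond 1 at an adjusted p under 0.01. A fold change on this scale understates the change of low genes. The fit was also run on simulated counts that held no line effect, so that run cannot judge a fit without a covariate on paired lines. Alternatives were pseudocounts of 0.5 and 8, no filter, upper quartile rescaling, the cell line as a block, the compared states alone, an adjusted p below 0.05, and leaving out each line. The lines pair the states, since each line came from 1 animal. The deviations of the 2 samples of a line from their state means had a mean correlation of 0.241 (0.159 to 0.352) in resistant and parental cells and 0.457 (0.337 to 0.52) in P12 and resistant cells.

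The members and lists were chosen with earlier results of these data known. Named were the members, the other pathway genes called in resistant against parental or P12 against resistant cells, and the 3 genes most correlated with each called member. Gene positions and merged exon lengths came from GENCODE M21 (GRCm38) and promoters from RefSeq (GRCm38.p6). The value of 1 read in each library was estimated from the spacing of low values, of which 56.6% to 73.8% fell on whole steps, so that 3 reads equal 2.31 to 4.07 normalized counts. Such limits cover counting error only. A further item of the mouse genotype is not reported here.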

Additional observations from a re-analysis of the deposited data

Results flagged for a closer look

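Values of 4 samples stood apart from the other lines of their state. Tgfbr2 was 10273.0 normalized counts in parental cells of line #7, and Tgfbr3 was 3699.3 in parental cells of line #9. Inhba was 2693.1 in P12 cells of line #4, and Smad4 was 2145.3 in resistant cells of line #9, the last one being low. Each gap to the nearest other sample exceeded Dixon's 95% critical value for 6 samples, which chance exceeds in about 1 of 20 groups.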

How the results depend on the processing

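The call of Tgfb2 in resistant against parental cells kept its direction and passed under every alternative except without line #4, #6 or #10. The cause of changed counts was not tested. With adjusted p below 0.05, the counts of genes called in resistant against parental cells went from 1023 to 2190 over all genes, from 1 to 2 members (Tgfb1 joining) and from 7 to 19 pathway genes. In P12 against resistant cells they went from 412 to 947, from 1 to 2 and from 2 to 11, in P12 against parental cells from 22 to 116 genes, in P5 against resistant cells from 73 to 376, and in P5 against parental cells from 5 to 9.

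With the line as a block, these comparisons gave 2017, 872, 101 and 118 genes in the first 4, 19, 13 and 2 pathway genes in the first 3, and 2 members in P12 against resistant cells (Tgfb2 joining). The block changed no other call of a member. With the compared states fitted alone, 4 and 1 pathway genes were called in the first 2 comparisons, 93, 12, 14 and 1 genes in the last 4, and 0 members in P12 against resistant cells, where Tgfb1 had an adjusted p of 0.0464. In that comparison no filter gave 0 members (Tgfb1 0.0128) and 1 pathway gene, a pseudocount of 8 gave 2 members (Tgfb2 0.00898), and upper quartile rescaling gave 1 pathway gene. Of the named pathway genes, Furin (0.0135 and 0.0196) and Tgif1 (0.0106 and 0.0163) lost their call with no filter and with the states alone, Acvr1b with the states alone (0.0121), Fstl3 in P12 cells with no filter, rescaling and the states alone (0.0133, 0.0121 and 0.046), and Grem1 with a pseudocount of 8 (0.0116).

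Leaving out 1 line gave 450 to 1237 genes, 0 to 1 members and 1 to 8 pathway genes in resistant against parental cells. It gave 132 to 467, 0 to 1 and 0 to 4 in P12 against resistant cells, 4 to 68 genes and 0 to 1 pathway genes in P12 against parental cells, 23 to 48 genes in P5 against resistant cells and 1 to 5 in P5 against parental cells. None of the values that changed sign had been called. In resistant against parental cells the log2 fold change of Inhba ran from -0.33 to 0.44 and that of Tgfbr2 from -0.058 to 0.38. In P12 against resistant cells Tgfbr3 ran from -0.58 to 0.89, Smad4 from -0.078 to 0.064 and Smad7 from -0.033 to 0.39, and in P12 against parental cells Tgfb2 from -0.058 to 1.65 and Smad4 from -0.025 to 0.16. In P5 against resistant cells Tgfbr3 ran from -1.41 to 0.73 and Smad3 from -0.41 to 0.83, and in P5 against parental cells Tgfb2 from -0.33 to 2.89, Smad4 from -0.15 to 0.021 and Smad7 from -0.26 to 0.072. Rescaling turned Smad4 to 0.066 in P12 against resistant cells and, in P5 against parental cells, Smad4 to 0.0059 and Smad7 to 0.016. The block turned Tgfbr3 to 0.48 in P5 against resistant cells and Smad7 to 0.23 in P5 against parental cells.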
